A study of Rattus with 6 samples.

Results

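The genes described are those of fatty acid synthesis and oxidation: 31 genes out of the 30211 in the count table, taken by symbol from a list of 32 names. That list was drawn up for the pathway, with earlier results of these data known. The list covers the enzymes that make fatty acids from citrate, those that desaturate and elongate them, those that bring them into the cell and activate them, the carnitine shuttle, the enzymes of beta-oxidation, and 3 transcriptional regulators. Scd1 was not analysed here; in RefSeq's rat gene table (assembly GRCr8) that symbol is a synonym of Scd. All 31 passed the filter on low counts and were tested, Acacb only through its dexamethasone libraries and Ppargc1a only through its controls.

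RNA was sequenced from rat bone marrow mesenchymal stem cells (BMSC), the stromal cells of marrow that can give rise to bone, fat and cartilage. There were 3 control libraries and 3 libraries from cells cultured for 4 days with dexamethasone, a synthetic glucocorticoid. The dose was 100 uM by the series design text, and the titles give day 4 for all 6 libraries. All 6 were wild type. The sources used here name no strain, age or vehicle, and leave unsaid if each replicate had its own animal or culture. The p-values therefore measure only the spread between these libraries, which may be technical. The labels' treatment tag names dexamethasone for all 6 samples, and the groups were therefore taken from the titles.

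Cells build fatty acids in the cytosol. ATP citrate lyase cuts exported citrate into acetyl-CoA, acetyl-CoA carboxylase turns that into malonyl-CoA, and fatty acid synthase assembles palmitate, which desaturases and elongases then modify. To be burned, a fatty acid is first joined to coenzyme A, passed into mitochondria by the carnitine shuttle, and shortened in a cycle of dehydrogenation, hydration, a further dehydrogenation and thiolysis. Malonyl-CoA blocks the entry step of that shuttle, so that synthesis and oxidation oppose each other. PPAR receptors and the coactivator PGC-1α switch on many genes of oxidation, and SREBP-1c switches on genes of synthesis. In marrow stroma these pathways are best known from the formation of fat cells, and glucocorticoids are a usual component of the medium used to induce it.

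Library totals ran from 34835072 to 41676315 counts. Markers of marrow stroma were abundant, with a summed level of 5719 to 5768 CPM (counts per 1e6, library sizes adjusted by TMM) in controls and 3987 to 4019 with dexamethasone over 13 genes, whereas the summed levels of 5 endothelial, 5 erythroid and 4 hepatocyte markers were at most 2.10 CPM in any library. The 13 stroma genes did not move alike, with 5 rises and 7 falls (38.5% and 53.8%, against 32.3% and 31.7% of all tested genes). On average Prrx1 fell from 727 to 75.6 CPM and Pdgfrb from 616 to 137 CPM, while Pdgfra rose from 598 to 965 CPM. Lepr was scarce, at 0.262 and 0.913 CPM. Markers of other cell types or states also moved with the groups. The part of any of these markers in the results below was not tested. The 10 markers of cycling cells summed to 814 to 836 CPM in controls and 2710 to 2737 with dexamethasone. The 12 macrophage markers summed to 13.1 to 13.9 CPM and 8.91 to 9.73 CPM, with Adgre1, C1qa and C1qb at 0 in every library. Cd14, at 6.79 to 7.77 CPM in every library, made up most of that sum and was not called, while Cd68 fell 2.38-fold. Cd74 had 206 counts in controls and 17 with dexamethasone, Cd53 had 165 and 15, and Lyz2 had 55 and 16. Cd74, Cd53 and Lyz2 passed the filter on low counts only through the control libraries, so these falls are given as a description. The 10 adipocyte markers summed to 3.16 to 4.16 CPM and 9.67 to 13.05 CPM. Most of the adipocyte sum with dexamethasone was Cebpa, at 1.56 to 2.05 CPM in controls and 5.88 to 9.30 CPM with dexamethasone, and Retn had 4 and 141 counts. Of the genes that define mature fat cells, Lep was at 0, Adipoq had 0 counts in controls and 2 with dexamethasone, Fabp4 had 0 and 8, Plin1 had 2 and 14, and Cidec went the other way with 22 and 2. Also on that list, Slc2a4 had 20 counts in controls and 59 with dexamethasone, and Cfd had 36 and 56. In such bulk samples fewer cells of a type and less RNA per cell cannot be told apart.

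Dexamethasone libraries differed from controls in 22 of the 31 genes, with 13 higher and 9 lower. A call here means an adjusted p of less than 0.05 from the quasi-likelihood test of edgeR, adjusted by Benjamini-Hochberg over all tested genes. By that rule 64.0% of all 14111 tested genes were called, 32.3% rising and 31.7% falling, against 71.0%, 41.9% and 29.0% of the fatty acid genes, shares near those of all genes, which are not a result about the fatty acid genes. The groups did not overlap for 22 of the 31 (71.0%), against 66.9% of all tested genes. The median log2 fold change was 0.07 and the median size of a change 0.35, against 0.00 and 0.31 over all tested genes. At least 2-fold changes were called in 6 genes (19.4%, against 15.6% of all tested genes). These were Acacb, Fads1, Hadh and Acaa2, which rose, and Acsl4 and Ppargc1a, which fell. Replicates were so alike that small differences passed, and 2 stricter settings were therefore run. Tested against a fold change of 1.5, 7 genes held, the same 6 and Acly, with 5 rises and 2 falls. Of all tested genes 20.0% then passed, 11.0% rising and 9.06% falling. With the biological coefficient of variation set to 0.2, these 7 held together with Acaa1a, which rose, and Acsl3, which fell, against 26.2% of all tested genes (14.1% rising and 12.0% falling). Summed over the 31 genes, the level per length was 532 to 542 RPKM (CPM per kilobase of exon) in controls and 534 to 553 RPKM with dexamethasone, ranges that overlap, so the total hardly moved while single genes went both ways.

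**Figure D1:**
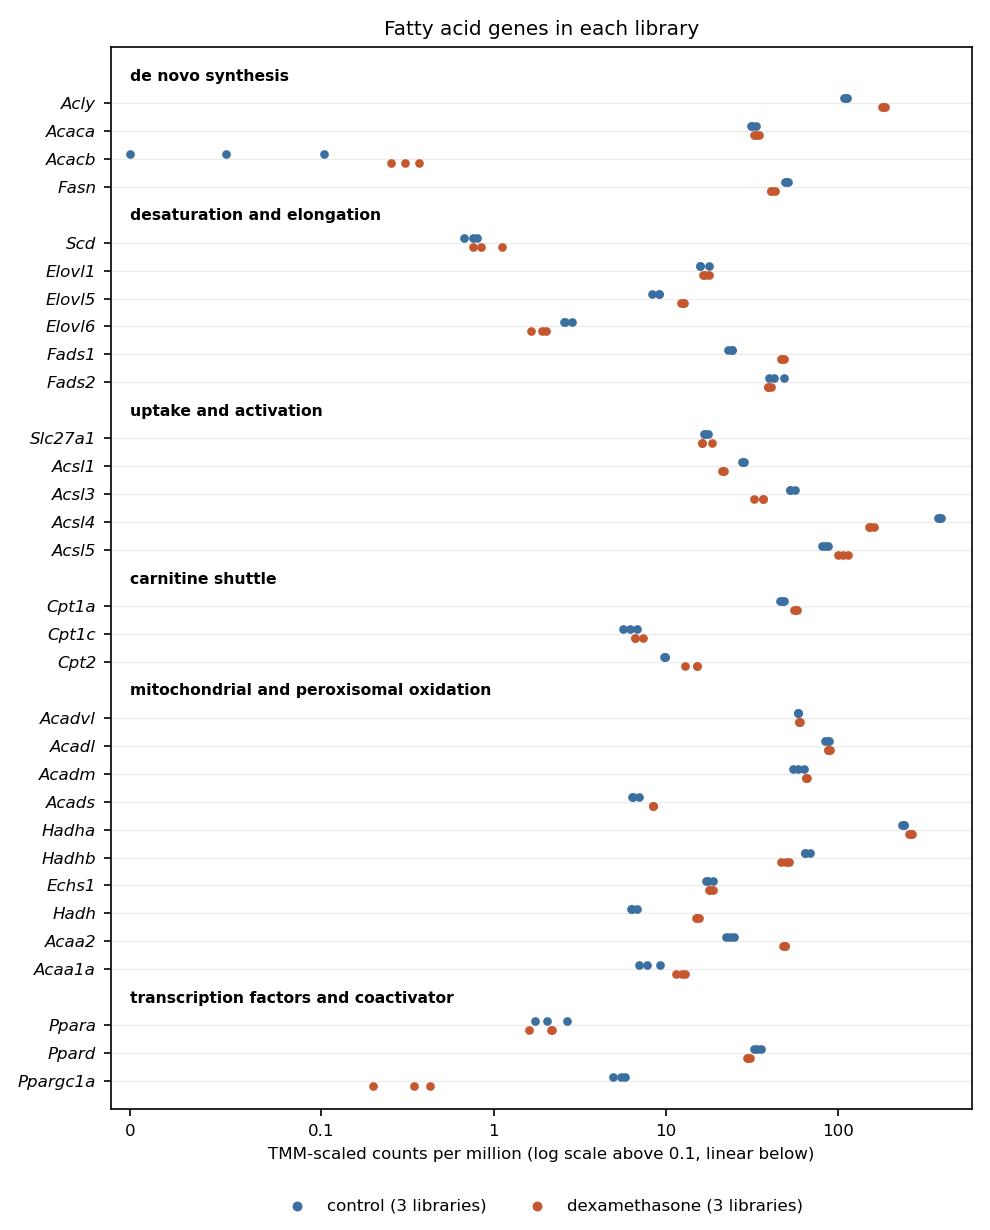
Each of the 31 genes in each of the 6 libraries, in TMM-scaled CPM on a horizontal axis that is logarithmic above 0.1 and linear below, with blue points for the 3 controls and orange points for the 3 dexamethasone libraries. Replicates lie close together, and the widest separation is that of Ppargc1a, at 4.92 to 5.77 CPM in controls and 0.199 to 0.426 CPM with dexamethasone.

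The widest gap between the groups was that of a regulator, Ppargc1a, which encodes PGC-1α, the inducible coactivator of mitochondrial biogenesis and fatty acid oxidation (chromosome 14, 63095720 to 63187009, in the table's own rat coordinates). It had 5.50, 4.92 and 5.77 CPM in control replicates 1 to 3 and 0.426, 0.199 and 0.345 CPM in dexamethasone replicates 1 to 3. All 3 dexamethasone libraries lay far below all 3 controls, and little above the detection floor of 0.142 to 0.170 CPM (6 counts a library). The 637 counts of the controls stood against 39 with dexamethasone, and the log2 fold change was -4.02 ± 0.27 (SE), 16.2-fold lower (edgeR, adjusted p = 1.7e-20). In size this change exceeded that of 98.5% of all tested genes. Ppargc1a passed the filter on low counts only through the control libraries. Its fold change, its rank in size and its call, here and in the counts of genes above, are therefore given as a description.

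Of the receptors that PGC-1α assists, the PPARs changed little, while Esrra, described below, fell. Ppard, the PPAR found in most tissues, had 34.0, 32.6 and 35.8 CPM in controls and 30.8, 29.6 and 29.9 CPM with dexamethasone, a small fall without overlap (log2 -0.18 ± 0.042, edgeR, adjusted p = 0.0031). That call did not hold under either stricter setting. Ppara, the PPAR best known from liver, was scarce, at 2.05, 2.66 and 1.75 CPM and 2.16, 1.62 and 2.19 CPM, and its overlapping groups gave no call (log2 -0.11 ± 0.22, adjusted p = 0.66). Per length, Ppard was the leading PPAR in every library, with 75.01% to 83.3% of the summed RPKM of Ppara, Ppard and Pparg. Pparg, the regulator of fat cell formation, was not called either (log2 0.11 ± 0.20, adjusted p = 0.72).

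Ppargc1a has a pair of relatives that were measured beside it. Ppargc1b, which encodes PGC-1β, had 0.648, 0.608 and 0.450 CPM in controls and 2.37, 1.93 and 1.48 CPM with dexamethasone (log2 1.76 ± 0.24, edgeR, adjusted p = 1.9e-07). Its groups did not overlap, and it moved in the direction opposite to Ppargc1a. Pprc1, which encodes the PGC-1-related coactivator, fell slightly (log2 -0.18 ± 0.048, adjusted p = 0.0015), a call lost against a fold change of 1.5 and with the coefficient of variation at 0.2 (adjusted p = 1 and 0.69). Per length, Ppargc1a made up 18.6% ± 1.28 (SD, n = 3) of the 3 coactivator genes in controls and 1.46% ± 0.56 with dexamethasone, while Ppargc1b went from 1.64% ± 0.30 to 7.16% ± 1.65. Pprc1 held the rest, at 79.8% ± 1.06 and 91.4% ± 1.97.

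**Figure D2:**
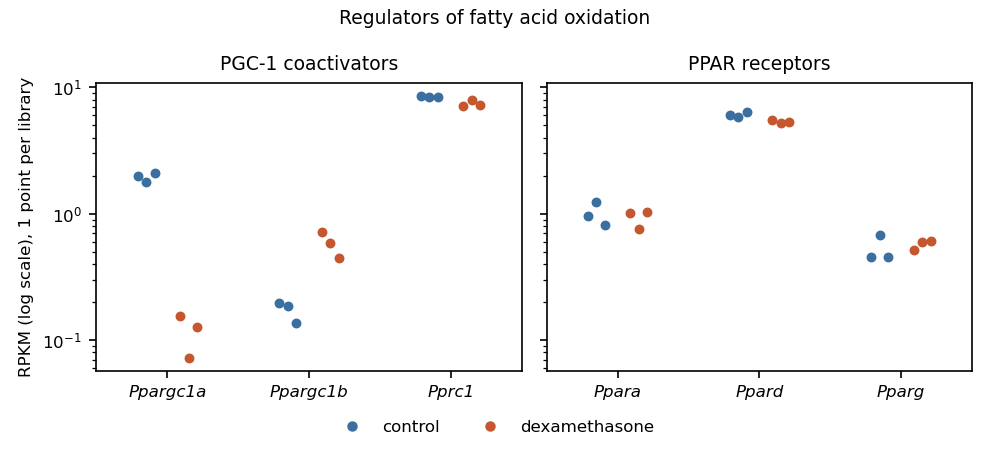
Levels per length (RPKM, logarithmic axis) of the 3 PGC-1 coactivator genes on the left and the 3 PPAR genes on the right, with 1 point per library, blue for control and orange for dexamethasone. Ppargc1a fell from 1.97 to 0.118 RPKM and Ppargc1b rose from 0.173 to 0.587 RPKM on average, while Pprc1 and the PPAR genes stayed within narrow ranges.

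Genes of fatty acid synthesis parted at the first step. Acly, which encodes ATP citrate lyase (chromosome 10, 88392248 to 88442845), had 112, 111 and 109 CPM in controls and 188, 179 and 185 CPM with dexamethasone. The dexamethasone libraries were all higher, by 0.73 ± 0.023 on the log2 scale (edgeR, adjusted p = 3.4e-24). Fasn, which encodes fatty acid synthase (chromosome 10, 109987735 to 110005901), was measured at 51.2, 50.1 and 49.3 CPM in controls and at 42.8, 40.6 and 40.6 CPM, lower in all 3 dexamethasone libraries by a smaller step (log2 -0.28 ± 0.030, adjusted p = 8.1e-07). That call of Fasn was among those lost against a fold change of 1.5. Per length, the ratio of Acly to Fasn was 4.63 to 4.67 in controls and 9.26 to 9.60 with dexamethasone, with no overlap.

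The carboxylases lie between those steps. Acaca, which encodes the cytosolic acetyl-CoA carboxylase 1 that feeds synthesis, had 31.4, 31.5 and 33.5 CPM and 34.9, 32.8 and 33.4 CPM, groups that overlap (log2 0.07 ± 0.040, edgeR, adjusted p = 0.27). Acacb, which encodes the mitochondrial-surface enzyme whose malonyl-CoA restrains the carnitine shuttle, was barely detected. It had 4, 0 and 2 counts in control replicates 1 to 3 and 13, 9 and 15 counts in dexamethasone replicates 1 to 3, a ratio of 6.50 per library total with an exact 95% binomial interval of 1.91 to 34.3 on read pairs. Its level passed the filter on low counts only through the dexamethasone libraries, so its call as higher (adjusted p = 0.0014), here and in the counts of genes above, is given as a description.

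The desaturases and elongases moved singly. Fads1, which encodes the Δ5 desaturase of polyunsaturated fatty acids (chromosome 1, 226234074 to 226249138), had 24.2, 24.3 and 22.9 CPM in controls and 47.0, 47.5 and 48.3 CPM with dexamethasone. Every dexamethasone library held about the same raised level, and the log2 fold change was 1.001 ± 0.030 (edgeR, adjusted p = 1.5e-21). Fads2, which encodes the Δ6 desaturase acting earlier in the same pathway (chromosome 1, 226114413 to 226152524), had 39.7, 42.5 and 48.3 CPM in controls and 39.4, 39.2 and 40.7 CPM. These groups overlap, and control replicate 3 stood above the rest. Fads2 was called as lower at log2 -0.13 ± 0.084 (adjusted p = 0.035), but without control replicate 3 the value was -0.05 (adjusted p = 0.43). The call was also lost without any 1 of the 3 dexamethasone libraries (adjusted p = 0.051 to 0.12), with library size alone (0.15), with DESeq2 (0.065) and with limma-voom (0.052). The genes lie on opposite strands with their 5′ ends 81550 bases apart. The ratio of Fads1 to Fads2 per length was 0.188 to 0.242 in controls and 0.472 to 0.482 with dexamethasone.

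The elongases also differed from one another. Elovl5, an elongase of polyunsaturated chains, had 8.35, 9.12 and 9.20 CPM in controls and 12.6, 12.3 and 12.7 CPM with dexamethasone, without overlap (log2 0.49 ± 0.046, edgeR, adjusted p = 2.5e-06). Elovl6, which lengthens palmitate to stearate, had 2.85, 2.58 and 2.57 CPM and 1.66, 2.01 and 1.92 CPM (log2 -0.52 ± 0.096, adjusted p = 0.010), lower in all 3 libraries at a low level. The call of Elovl6 was lost without dexamethasone replicate 1 (adjusted p = 0.059), and those of both genes against a fold change of 1.5. Elovl1, an elongase of very-long-chain saturated fatty acids, was not called (log2 0.05 ± 0.069). Scd, a stearoyl-CoA desaturase, was near 1 CPM in every library and not called (log2 0.29 ± 0.17, adjusted p = 0.41). Its reads may be shared with close copies, of which Scd2 was the abundant one, with 165, 166 and 160 CPM in controls and 239, 238 and 235 CPM with dexamethasone.

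The makeup of the long-chain acyl-CoA synthetase family shifted. These are the enzymes that activate fatty acids and steer them to different uses. Acsl4, which prefers arachidonic acid and is known for its role in ferroptosis (chromosome X, 113596239 to 113659944), had 395, 392 and 382 CPM in controls and 154, 151 and 161 CPM with dexamethasone. All 3 dexamethasone libraries lay below all controls, a log2 fold change of -1.32 ± 0.030 (edgeR, adjusted p = 3.6e-35). Acsl3, a synthetase of the endoplasmic reticulum and lipid droplets, had 52.7, 55.9 and 52.5 CPM against 36.8, 36.5 and 32.7 CPM (log2 -0.60 ± 0.062, adjusted p = 1.2e-14), also without overlap. Acsl1, the main synthetase of fat and heart, fell by a smaller step, from 27.8, 28.5 and 28.0 CPM to 21.7, 21.6 and 21.2 CPM (log2 -0.39 ± 0.015, adjusted p = 1.5e-07).

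Acsl5, a synthetase of mitochondria and endoplasmic reticulum (chromosome 1, 276240703 to 276290008), was the member of the family that rose, from 80.7, 87.5 and 84.1 CPM to 115, 101 and 107 CPM (log2 0.36 ± 0.065, edgeR, adjusted p = 2.7e-09). The groups did not overlap, but the dexamethasone replicates spread more widely than those of Acsl4. Calls of Acsl1 and Acsl5 did not hold against a fold change of 1.5 or with the coefficient of variation at 0.2, and that of Acsl3 not against the fold change. Per length, Acsl4 made up 56.5% ± 0.96 (SD, n = 3) of the 4 genes in controls and 33.7% ± 1.39 with dexamethasone. Acsl5 went from 24.6% ± 0.74 to 46.9% ± 1.52 and became the leading synthetase in each dexamethasone library. Acsl3 kept 13.9% ± 0.27 and 13.7% ± 0.98, and Acsl1 had 5.03% ± 0.047 and 5.73% ± 0.20. Slc27a1, a transport protein that takes up fatty acids and also activates them, was not called, at 16.7 to 17.7 CPM in controls and 16.3 to 18.7 CPM with dexamethasone (log2 0.00 ± 0.070).

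**Figure D3:**
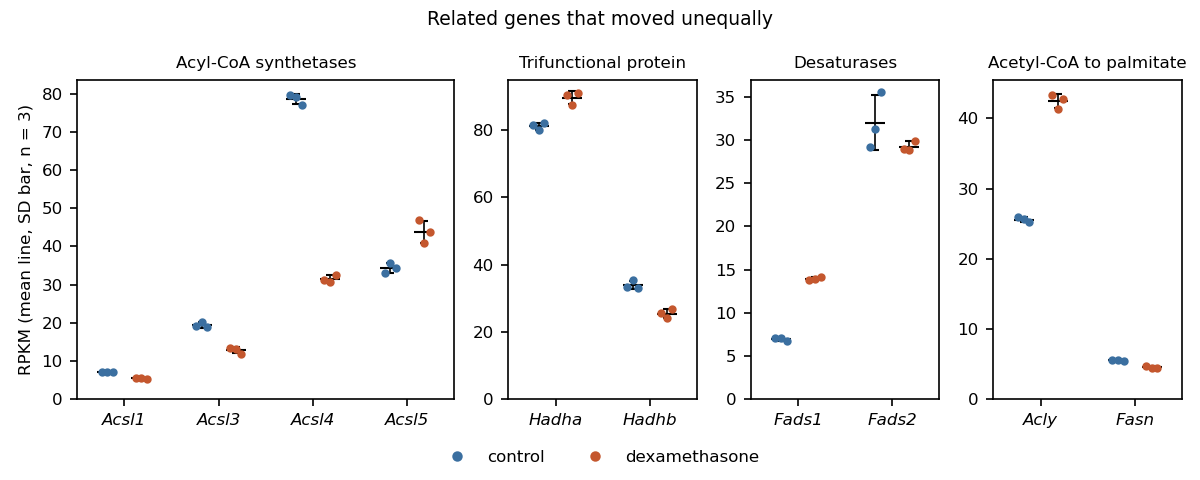
Levels per length (RPKM, axes from 0) of the 4 long-chain acyl-CoA synthetases, the 2 subunits of the mitochondrial trifunctional protein, the 2 polyunsaturated fatty acid desaturases, and Acly with Fasn, with 1 point per library and black lines for the mean and SD (n = 3). Acsl4 fell from 78.7 to 31.4 RPKM while Acsl5 rose from 34.3 to 43.8, Hadhb fell while Hadha rose, and Fads1 and Acly rose while Fads2 and Fasn did not.

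Of the 3 carnitine shuttle genes, 2 rose by modest steps. Cpt1a, which encodes the regulated outer-membrane step that malonyl-CoA inhibits (chromosome 1, 218569510 to 218629678), had 48.9, 47.1 and 45.8 CPM in controls and 55.6, 57.7 and 57.3 CPM with dexamethasone (log2 0.27 ± 0.031, edgeR, adjusted p = 7.3e-07). Cpt2, which releases the acyl-CoA on the inner side, had 9.90, 9.91 and 9.75 CPM against 15.3, 12.9 and 15.2 CPM (log2 0.56 ± 0.079, adjusted p = 1.5e-07). Neither gene's groups overlapped, though dexamethasone replicate 2 was the lowest of its group for Cpt2, and neither call held against a fold change of 1.5 or with the coefficient of variation at 0.2. Cpt1c, a relative known mainly from brain, was not called (log2 0.14 ± 0.092, adjusted p = 0.26), and Cpt1a exceeded it 4.25 to 5.51 times per length in every library.

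Of the acyl-CoA dehydrogenases that open each turn of mitochondrial beta-oxidation, 2 were not called and 2 rose slightly. Acadvl and Acadl, the dehydrogenases of very-long and long chains, were not called, at 58.4 to 58.8 CPM and 83.8 to 88.9 CPM in controls and 59.2 to 59.9 CPM and 87.6 to 89.3 CPM with dexamethasone (log2 0.02 ± 0.0064 and 0.02 ± 0.027, edgeR, adjusted p = 0.67 and 0.56). Acadm, of medium chains, had 58.4, 63.3 and 55.0 CPM and 65.4, 65.3 and 66.4 CPM, a small rise (log2 0.16 ± 0.059, adjusted p = 0.0016). Acads, of short chains, had 6.35, 6.49 and 7.02 CPM and 8.43, 8.42 and 8.47 CPM (log2 0.35 ± 0.044, adjusted p = 0.0022). Neither rise held against a fold change of 1.5 or with the coefficient of variation at 0.2. Per length, Acadl remained the leading dehydrogenase, with 47.6% to 50.1% of the 4 genes in every library.

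Past that step, Hadh and Acaa2 about doubled. Hadh, which encodes the dehydrogenase of short and medium chain 3-hydroxyacyl-CoA (chromosome 2, 236353445 to 236395067), had 6.33, 6.84 and 6.40 CPM in controls and 15.2, 15.6 and 14.9 CPM with dexamethasone (log2 1.22 ± 0.040, edgeR, adjusted p = 1.4e-16). Acaa2, which encodes the matrix thiolase that ends each turn of the cycle (chromosome 18, 70733872 to 70762395), had 23.7, 24.8 and 22.2 CPM in controls and 49.4, 47.6 and 49.2 CPM (log2 1.05 ± 0.049, adjusted p = 5.5e-22). Each dexamethasone library was above each control for both genes, and both calls held under every alternative tried. Echs1, the short-chain enoyl-CoA hydratase that acts just before Hadh, was not called (17.0 to 18.8 CPM and 17.8 to 18.8 CPM, adjusted p = 0.68). Acaa1a, the peroxisomal thiolase, rose from 7.001, 9.25 and 7.77 CPM to 12.9, 12.5 and 11.5 CPM (log2 0.61 ± 0.13, adjusted p = 2.6e-07), a call lost against a fold change of 1.5 (adjusted p = 0.62).

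The subunits of the mitochondrial trifunctional protein, which carries out the last 3 reactions of each cycle on long chains, were called in opposite directions. Hadha, the subunit with hydratase and dehydrogenase activity (chromosome 6, 27589657 to 27629175), was the most abundant of the 31 genes per length in both groups. It had 240, 236 and 242 CPM in controls and 267, 258 and 269 CPM with dexamethasone (log2 0.14 ± 0.021, edgeR, adjusted p = 3.1e-05). Hadhb, the thiolase subunit (chromosome 6, 27555412 to 27582995), had 64.7, 68.7 and 64.6 CPM in controls and 49.8, 46.7 and 51.9 CPM (log2 -0.41 ± 0.053, adjusted p = 2.7e-11). Neither gene's groups overlapped. The genes stand back to back on opposite strands, with 6662 bases between their 5′ ends as the table gives them. The ratio of Hadha to Hadhb per length was 2.45, 2.27 and 2.48 in controls and 3.54, 3.64 and 3.42 with dexamethasone. Both changes are small, and neither call held against a fold change of 1.5 or with the coefficient of variation at 0.2. No exon of any of the 31 genes overlapped an exon of another gene in the table.

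**Figure D4:**
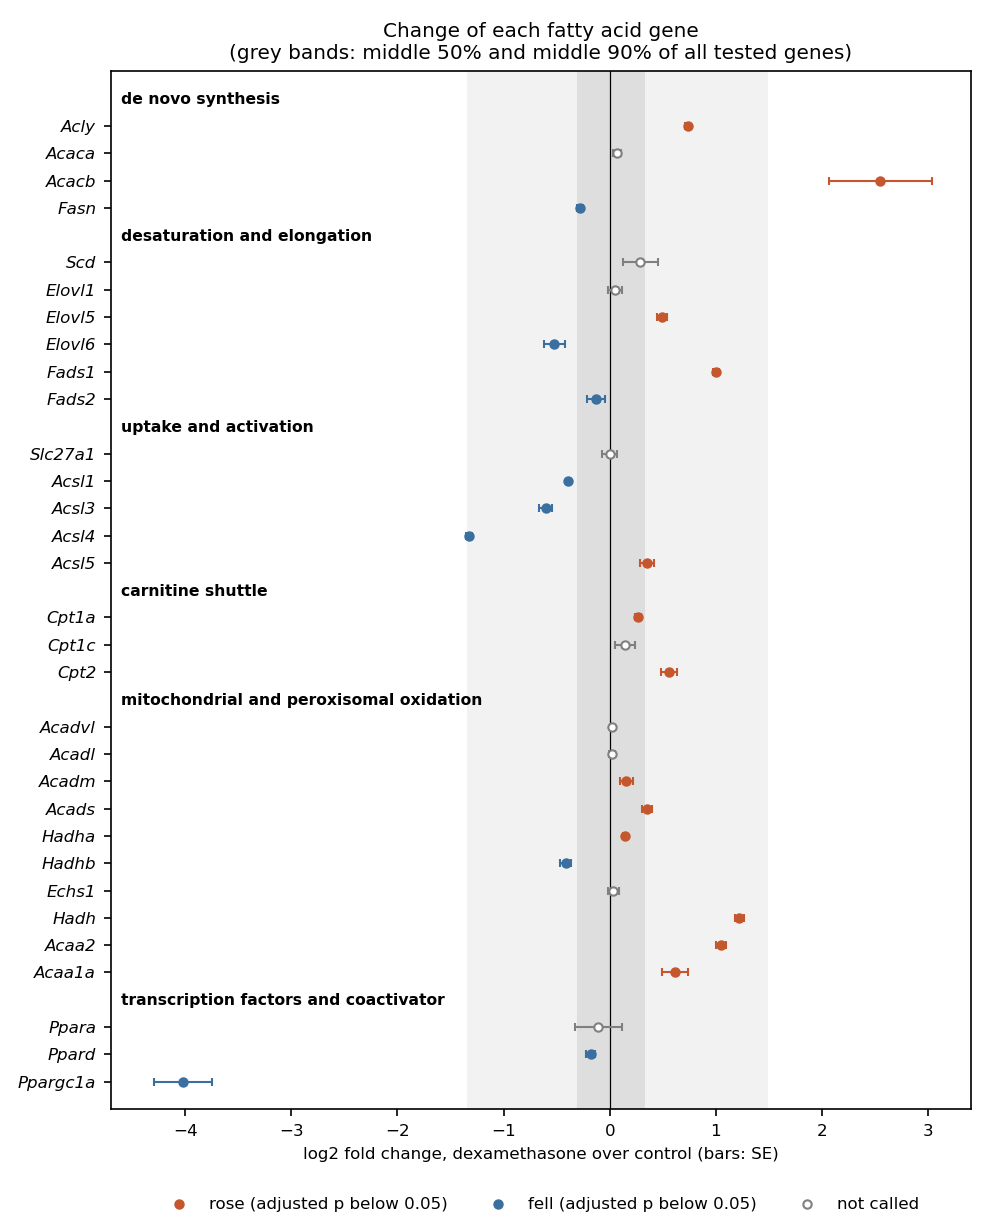
Log2 fold change of dexamethasone over control for each of the 31 genes by role, with SE bars, orange for genes that rose, blue for genes that fell and open circles for genes not called. Grey bands mark the middle 50% (-0.30 to 0.33) and the middle 90% (-1.33 to 1.48) of all tested genes, and Ppargc1a and Acacb are the genes that lie outside the wider band.

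Summed by role and per length, the 4 genes of synthesis stood at 35.5 to 36.2 RPKM in controls and 50.7 to 53.3 RPKM with dexamethasone, most of it from Acly. The 5 genes of uptake and activation went from 143 to 147 RPKM down to 95.2 to 103 RPKM, with Acsl4 the most abundant of them in controls and Acsl5 with dexamethasone. The 3 shuttle genes had 17.1 to 17.5 RPKM and 21.1 to 22.3 RPKM, and the 10 genes of oxidation 268 to 276 RPKM and 298 to 305 RPKM. The 6 desaturases and elongases had 53.9 to 61.2 RPKM and 63.4 to 65.2 RPKM, again without overlap. These sums follow their most abundant genes and say nothing of the flow through a pathway.

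The rest of the pathway was read from 7 lists of 161 further genes, of which 123 were tested, and 48 rose and 33 fell. That is 65.9% called, against 64.0% of all tested genes. Among 24 genes of fatty acid synthesis, its supply and its control, rises and falls were even, at 6 each (25%, against 32.3% rising and 31.7% falling among all tested genes), and 12 were not called (median log2 0.02). Acss2, which makes acetyl-CoA from acetate in the cytosol, rose from 10.02 ± 0.91 to 47.0 ± 2.03 CPM (SD, n = 3; log2 2.23 ± 0.085, edgeR, adjusted p = 5.5e-31). Of the 6 genes that fell, those named here are regulators, and regulators were also among the rises. Chosen after their values were seen, Mlx rose by 0.51, Nr1h3 by 0.44, Prkaa1 by 0.26 and Prkaa2 by 1.35 (log2). Prkag2 had 46 and 142 counts and passed the filter only through dexamethasone libraries. Prkab2, of the same kinase complex, fell by 0.46. Calls of Mlx, Nr1h3, Prkaa1 and Prkab2 were lost under both stricter settings (adjusted p = 0.10 to 0.52 with the coefficient of variation at 0.2). Reads of Mlx may be mixed with those of the overlapping gene Psmc3ip. Srebf1, which encodes SREBP-1, fell from 16.03 ± 1.15 to 7.78 ± 0.28 CPM, and Insig1, a sterol-sensing retention protein and SREBP target, from 52.3 ± 2.90 to 28.2 ± 1.35 CPM. Mid1ip1, an activator of acetyl-CoA carboxylase, fell by 0.61 on the log2 scale, which did not pass against a fold change of 1.5 (adjusted p = 0.47). Some reads of Srebf1 may belong to Rai1, whose exons overlap it.

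The list of further elongation and desaturation enzymes had 11 tested genes, with 6 rises (54.5%, against 32.3% of all tested genes), 1 fall (9.09%, against 31.7%) and 4 not called (median log2 0.30). Without control replicate 1, with limma-voom and with no filter on low counts, 2 fell. Scd2, the abundant stearoyl-CoA desaturase, rose by 0.54 and Cyb5a, the cytochrome that passes electrons to desaturases, by 0.59 on the log2 scale. Hsd17b12 and Hacd2, which carry out the reduction and dehydration steps of elongation, rose by 0.72 and 0.84. The rises of Scd2 and Cyb5a did not pass against a fold change of 1.5 (adjusted p = 1 and 0.73), and that of Scd2 not with the coefficient of variation at 0.2 (0.081).

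Uptake, activation and binding genes included the widest changes of the pathway. The 15 tested genes had 5 rises (33.3%, against 32.3% of all tested genes), 6 falls (40%, against 31.7%) and 4 not called (median log2 -0.08). Fabp5, a fatty acid binding protein, fell from 14.9, 14.6 and 12.7 CPM to 0.569, 0.624 and 0.591 CPM, 23.6-fold lower (log2 -4.56 ± 0.084, edgeR, adjusted p = 3.0e-29). Acss3, a mitochondrial synthetase of short-chain acyl-CoA, rose from 1.04, 0.963 and 0.625 CPM to 15.6, 16.5 and 16.7 CPM (log2 4.21 ± 0.22, adjusted p = 1.9e-29). Both genes were far apart between the groups and called under every alternative tried. Dbi, the acyl-CoA binding protein, rose by 0.62 on the log2 scale and Acot7, an acyl-CoA thioesterase, fell by 0.54. Neither passed against a fold change of 1.5 (adjusted p = 0.22 and 1), nor did Acot7 with the coefficient of variation at 0.2 (0.081).

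Carnitine shuttle genes outside the 31 moved both ways, with 3 rises and 3 falls among 7 tested (42.9% each, against 32.3% and 31.7% of all tested genes) and 1 not called (median log2 0.06). Without dexamethasone replicate 3 there was 1 rise. Crot, the peroxisomal carnitine octanoyltransferase, rose by 0.66 on the log2 scale. Cpt1b, the muscle form of the entry enzyme, fell by 0.58, though reads of the overlapping gene Chkb may be mixed with it. Slc22a5, the carnitine importer, fell by 0.48 and Aldh9a1, an enzyme of carnitine synthesis, by 0.10. None of these 4 passed against a fold change of 1.5, and with the coefficient of variation at 0.2 the call of Crot alone was kept (adjusted p = 0.026).

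Of 23 further genes of mitochondrial oxidation, 7 rose (30.4%, against 32.3% of all tested genes), 6 fell (26.1%, against 31.7%) and 10 were not called (median log2 0.02). Mcee, which encodes methylmalonyl-CoA epimerase, rose from 3.70 ± 0.29 to 11.7 ± 0.90 CPM (SD, n = 3; log2 1.66 ± 0.090, edgeR, adjusted p = 5.2e-18). Mmut, the mutase that takes the next step of the same propionate route, rose by 0.56, a call lost against a fold change of 1.5 (adjusted p = 1) and with the coefficient of variation at 0.2 (0.064). Ech1, an isomerase needed for some unsaturated chains, rose from 10.01 ± 0.54 to 20.2 ± 0.32 CPM, and Acat1, the acetoacetyl-CoA thiolase, from 80.3 ± 0.77 to 132 ± 2.02 CPM.

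Peroxisomal oxidation had the most one-sided count among the larger lists: 13 of 22 tested genes rose (59.1%, against 32.3% of all tested genes), 3 fell (13.6%, against 31.7%) and 6 were not called. The smaller list of elongation and desaturation enzymes was about as one-sided. Pex5, Pex11a and Pex16, listed as peroxisome genes but not enzymes of oxidation, were among the 13. The median log2 value of the peroxisomal list was 0.25. With DESeq2 11 rose and 1 fell, with library size alone 13 rose and 1 fell, and without control replicate 1 or dexamethasone replicate 3 the falls were also 1. These alternatives called 59.8% to 63.9% of all tested genes. Most of the peroxisomal rises were small. Against a fold change of 1.5, 2 of the 22 rose, a share not above that of all tested genes (11.0% rising). Scp2, whose gene gives both sterol carrier protein 2 and a peroxisomal thiolase, had 286, 285 and 307 CPM in controls and 1017, 1055 and 1063 CPM with dexamethasone (log2 1.83 ± 0.040, edgeR, adjusted p = 1.6e-39). Hsd17b4, the peroxisomal bifunctional enzyme, rose by 0.43 and Pecr, a trans-enoyl-CoA reductase, by 0.43. Cat, which encodes catalase, fell by 0.54 on the log2 scale. The calls of Hsd17b4, Pecr and Cat did not hold against a fold change of 1.5 or with the coefficient of variation at 0.2 (adjusted p = 0.079 to 0.21 in the latter).

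Among 21 partners, coregulators and targets of PPAR and PGC-1α, 8 rose and 8 fell (38.1% each, against 32.3% and 31.7% of all tested genes), and 5 were not called (median log2 -0.04). Pdk4, the kinase that shuts off pyruvate dehydrogenase and so favours fatty acids as fuel, rose from 1.22, 0.836 and 0.9995 CPM to 18.6, 17.7 and 18.03 CPM (log2 4.15 ± 0.15, edgeR, adjusted p = 1.4e-30). Txnip, an inhibitor of glucose uptake, rose from 2.18, 2.53 and 2.85 CPM to 29.5, 27.2 and 30.5 CPM (log2 3.53 ± 0.12, adjusted p = 2.5e-32). In both genes every dexamethasone library was far above every control. Esrra, which encodes the oestrogen-related receptor α, a partner of PGC-1α, fell from 48.9 ± 1.76 to 30.4 ± 1.14 CPM (log2 -0.69 ± 0.043, adjusted p = 2.3e-16), although reads of the overlapping gene Trmt112 may be mixed with it.

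**Figure D5:**
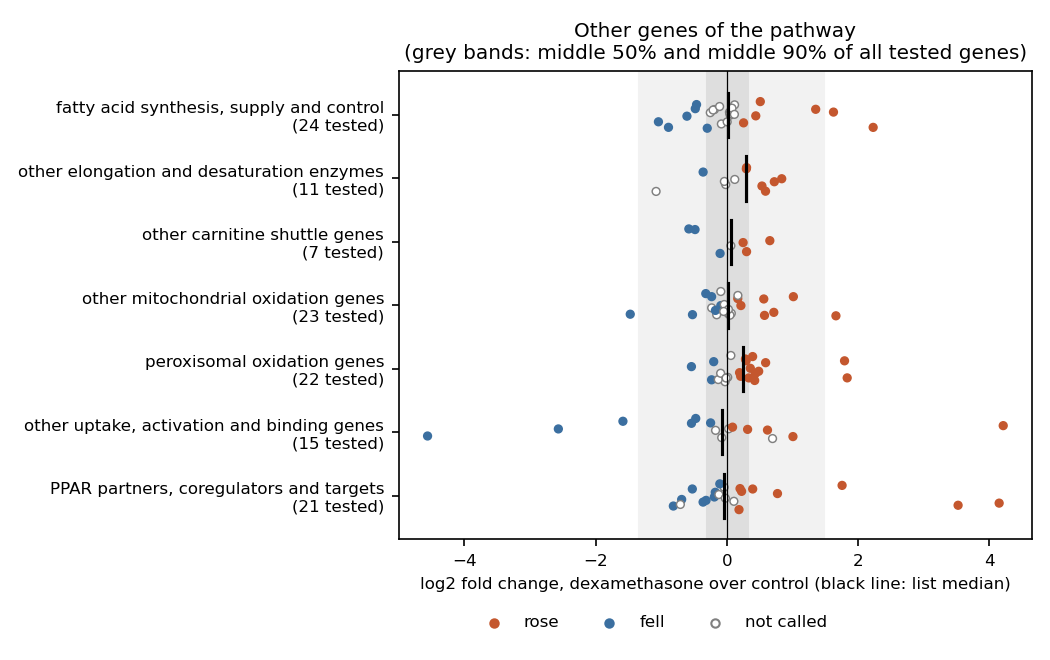
Log2 fold change of each tested gene in the 7 further lists of the pathway, with orange points for genes that rose, blue for genes that fell, open circles for genes not called and a black line at each list's median. Medians lie between -0.08 and 0.30, and the points farthest out are Fabp5 at -4.56, Acss3 at 4.21 and Pdk4 at 4.15.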

How the data were processed

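The authors deposited 1 table of raw read counts per gene for 6 libraries, with exon coordinates and the summed exon length in bases, per the file headers. The sources used here do not give the aligner, the counting program or the strand setting. The build in the submitters' processing notes is mm10, a mouse build, but the table holds rat symbols: all 31 genes matched RefSeq's rat table (GRCr8) by symbol and chromosome. Coordinates are the table's own, in a rat build not given in the sources used here. No column belonged to another sample. Every line named a gene.

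filterByExpr kept 14111 of 30211 genes. Counts were TMM-scaled and tested with edgeR 4.0.16 (R 4.3.3, robust quasi-likelihood fit, no covariate) and adjusted by Benjamini-Hochberg over all tested genes. The scripts were checked on simulated data. RPKM is CPM per kilobase of deposited exon length, used to compare genes. SE comes from log2 CPM with a prior count of 2. Of values from 1 to 30, 69.4% were even, against 50.6% of those of at least 1000, so 6 counts were taken as a floor of 3 read pairs, and intervals were computed on pairs (rounded up). They cover counting error only. Replicates correlated at 0.994 or more, with a common coefficient of variation of 3.66%, which lets small differences pass. Alternatives were DESeq2 1.42.0, limma-voom (limma 3.58.1), library size alone, no filter, a coefficient of variation of 0.2, a test against a fold change of 1.5, a replicate block and leaving out each library. Of each further list, the 4 called genes with the smallest p and a mean of at least 2 CPM are named, except 1 that is not reported here; Ppargc1b, Pprc1, Pparg and marker genes are named in addition. Members and lists were chosen with earlier results of these data known.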

Additional observations from a re-analysis of the deposited data

How the results depend on the processing

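Of the 22 called genes, 20 kept call and direction under 11 alternatives, the exceptions being Fads2 and Elovl6, and 7 under all 13. These 7, Acly, Acacb, Fads1, Hadh, Acaa2, Acsl4 and Ppargc1a, were those past a fold change of 1.5. Acacb and Ppargc1a passed the filter on low counts only through the group where each was higher. Calls of these genes are given as a description here too. No called gene reversed. Against a fold change of 1.5, 5 of the 31 genes rose and 2 fell, and 15 of the 123 other tested pathway genes rose and 8 fell. Of all tested genes 2827 passed (20.0%, with 11.0% rising and 9.06% falling). With the coefficient of variation set to 0.2, these were 6 and 3, 19 and 10, and 3693 (26.2%, with 14.1% rising and 12.0% falling). The shares of the pathway genes were near those of all genes and are not a result about the pathway. Leaving out 1 library at a time gave 13 rises in each case, 7 to 9 falls and 8570 to 8757 calls over all genes (59.8% to 61%). With a replicate block the counts were 13 rises, 9 falls and 8991 calls (63.7% of all tested genes). Same-numbered libraries did not deviate together (r = 0.0031, -0.0075 and 0.020), and not every library correlated best with its own number. Replicates this close may hold too little spread to show a pairing, so it is not known whether the numbers pair the samples. With library size alone the median of all genes was 0.04 against 0.00, and 55.3% of calls were rises against 50.5%. A planned search of promoters for motifs was not run. Depth limits Acacb, Scd and Ppargc1a in the dexamethasone libraries. Levels near 0.142 to 0.170 CPM, a floor set at 6 counts and not a measured background, were not taken as evidence of expression.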
